A study of Mus musculus with 12 samples.

Results

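Complement is the set of plasma and cell-borne proteins that tag debris, microbes and synapses for removal, and 9 genes of it were followed here. They encode the 3 chains of C1q (C1qa, C1qb and C1qc), the central component C3, factor B (Cfb), the receptors for the fragments C3a and C5a (C3ar1 and C5ar1), and both chains of complement receptor 3 (Itgam and Itgb2). The genes were chosen by name, out of 55421 genes in the deposited count table, and all 9 passed the filter on low counts that left 18842 genes. The table held 12 RNA libraries of microglia, the macrophages that reside in the brain, sorted from mice whose age was labelled as postnatal day 35 to 40 and whose sex was labelled male. All mice carried the Cx3cr1EGFP reporter, which places a green fluorescent protein in the Cx3cr1 gene. The knockout (KO) mice had the genotype Slc2a5-/-::Cx3cr1EGFP and so lacked Slc2a5 as well, which encodes the fructose transporter GLUT5, and the control mice (WT) had the genotype Cx3cr1EGFP. Cells were cultured in oxygen-glucose deprivation (OGD), a dish model of ischaemia without oxygen or glucose, for 6 h. They were taken after a further 24 h of recovery (KO-recovery and WT-recovery) or without it (KO-OGD and WT-OGD), with 3 libraries in each of the 4 groups. All groups therefore had OGD in common, and no cells without OGD were analysed here. Nothing in the labels tied replicates to separate animals or cultures, so p-values measure the spread between these libraries, which may be technical.

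C1q is a recognition protein built from A, B and C chains that binds immune complexes, dying cells and synapses, and its binding starts the classical pathway. Every pathway converges on the cleavage of C3, and factor B forms, with a C3 fragment, the enzyme that cleaves more C3 in the alternative loop. The released fragments C3a and C5a signal through the receptors encoded by C3ar1 and C5ar1, while C3 fragments fixed on a surface are bound by complement receptor 3, a pair of the integrin chains alpha M (Itgam, also called CD11b) and beta 2 (Itgb2, also called CD18). In the brain, microglia are the main source of C1q, and C3 with complement receptor 3 is known for the removal of synapses by microglia.

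Library totals were 9885259 to 19915479 counts after recovery and 31509859 to 45347118 after OGD. Every member had at least 174 counts in each library, so counting error was small for all of them. The targeted gene, Slc2a5, reached 4 to 17 counts per KO-OGD library against 40 to 58 per WT-OGD library, and at most 2 in any recovery library, where it could not check the labels. Xist, the X-linked RNA of female cells, had 7139, 4101 and 5828 counts in KO-recovery and 0, 3 and 0 in WT-recovery. It had 231 to 244 CPM (counts scaled to a common library size) in KO-OGD and 151 to 159 CPM in WT-OGD, although all mice were labelled male. WT-recovery thus differed from the other 3 groups in this sex marker, and sex cannot be told apart from genotype after recovery, from recovery in WT, or from the difference between the recovery changes of KO and WT. Xist was also higher in KO than in WT after OGD, by 0.61 on the log2 scale (edgeR quasi-likelihood adjusted p = 0.00168). In KO it was 0.48 higher after recovery than after OGD (adjusted p = 7.69e-04). A difference in sex mix thus cannot be told apart in those comparisons either. The library WT-recovery replicate 1 is a recovery sample by its title but not by its treatment label, and the title was followed. It had the largest share of mitochondrial counts, at 18.4% against 4.20% to 10.5% in the other 11 libraries. KO-recovery replicates 1 and 3 held transcripts of muscle, cartilage and connective tissue at a summed 460 and 380.4 CPM, against 20.2 in KO-recovery replicate 2 and 32.1 to 106 in WT-recovery. Of the microglia markers, Csf1r (647 to 996 CPM), Trem2 (312 to 452) and Cx3cr1 (51.9 to 87.0) were present in every library, while Tmem119 (0.0295 to 2.74) and Siglech (at most 0.0986) were near 0.

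The 9 genes together took 0.805% to 0.908% of all counts in KO-recovery libraries, 0.648% to 0.714% in WT-recovery, 0.309% to 0.350% in KO-OGD and 0.282% to 0.296% in WT-OGD. A gene is given as called where edgeR's quasi-likelihood test, adjusted over all genes, gave an adjusted p below 0.05. With recovery all 9 rose in KO microglia, where 29.3% of all genes tested were called higher, 29.6% lower and 59% in either direction. In WT microglia 8 of the 9 rose, and C3ar1 did not pass the test, against 26.9% called higher, 29.9% lower and 56.8% in either direction. In each genotype 8 of the 9 had recovery and OGD libraries that did not overlap, against 61.2% of all genes in KO and 67.1% in WT. The median log2 fold change of the 9 with recovery was 1.55 in KO and 1.41 in WT, against 0.00 and -0.03 over all genes. Between the genotypes after recovery, 4 of the 9 were higher in KO (C3, Cfb, C3ar1 and Itgam) and none was lower, against 10.1% of all genes called higher, 12% lower and 22.2% in either direction. The median difference between KO and WT was then 0.46 on the log2 scale, against 0.01 over all genes. Straight after OGD none of the 9 was called between KO and WT by edgeR's test, against 7.49% of all genes (0.966% higher and 6.52% lower), and the median difference was 0.28, against -0.01. In that comparison 1 of the 9 (C3ar1) had an unadjusted p below 0.05, and DESeq2 called 1. The count after OGD depended on the libraries in the fit, and 6 were called (5 higher and 1 lower in KO) when only the 6 OGD libraries were fitted. The 7.49% is not the share of all genes in that fit, which is not given here. More of the other complement genes were called in it as well, so a general rise in calls cannot be told apart. The recovery change itself was larger in KO for 2 of the 9, C3 and Cfb, where 2.89% of all genes had a change called larger in KO, 2.36% one called smaller and 5.25% a difference in either direction. These libraries are bulk samples, so fewer cells of a type and less RNA per cell cannot be told apart.

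**Figure D1:**
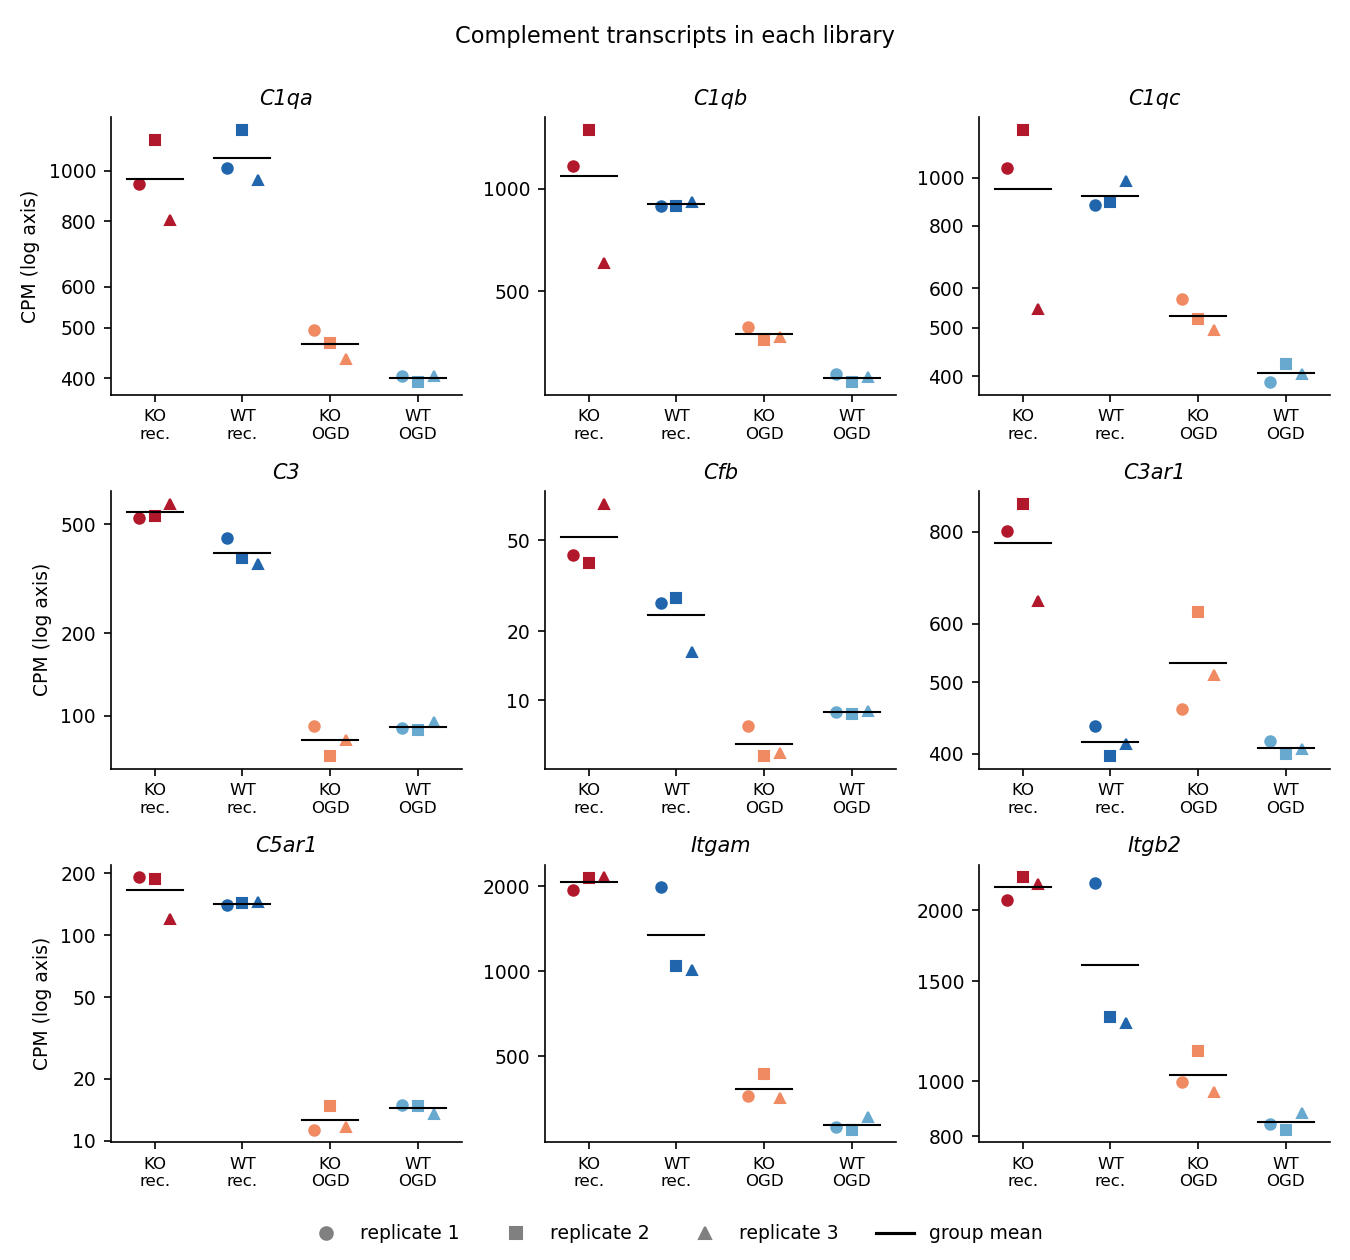
Level of each of the 9 complement genes in CPM on a log axis, with 1 point per library (circle, square and triangle for replicates 1, 2 and 3) and a line at the mean of each group, for KO and WT after recovery (rec.) and after OGD. All recovery libraries sat above all OGD libraries of their genotype for 7 of the genes, the exceptions being C1qc in KO and C3ar1 in WT, and the WT-recovery library marked by a circle stood at the KO level for Itgam and Itgb2.

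The C1q chains are encoded side by side on the minus strand of chromosome 4 (GRCm38), C1qb at 136880129 to 136886187, C1qc at 136889804 to 136893065 and C1qa at 136895917 to 136898803, within 18.7 kb. The same chromosome carries Slc2a5, 13.2 Mb away. The 250 bases before the RefSeq start sites of C1qb and C1qc are shown because both genes rose with recovery in both genotypes. They lie at chr4:136886201-136886450 (C1qb) and chr4:136892915-136893164 (C1qc), minus strand, in RefSeq's GRCm38.p6. Capitals mark the core motif of the macrophage factor PU.1, GAGGAA, which reads TTCCTC where it lies on the opposite strand.
C1qb: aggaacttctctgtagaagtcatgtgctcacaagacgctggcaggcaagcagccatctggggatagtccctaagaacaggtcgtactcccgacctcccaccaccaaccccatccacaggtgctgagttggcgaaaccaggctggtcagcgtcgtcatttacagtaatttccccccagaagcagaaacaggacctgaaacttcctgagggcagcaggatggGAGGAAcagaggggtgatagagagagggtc
C1qc: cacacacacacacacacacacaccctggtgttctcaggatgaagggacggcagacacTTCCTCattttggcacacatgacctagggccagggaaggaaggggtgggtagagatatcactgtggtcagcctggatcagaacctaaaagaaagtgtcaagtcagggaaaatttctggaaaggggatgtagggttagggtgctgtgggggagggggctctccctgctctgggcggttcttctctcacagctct
GAGGAA begins at position -30 from the C1qb start site and TTCCTC at position -193 from that of C1qc, and 28.3% of all 32851 RefSeq windows of 300 bases hold it on either strand. Windows were found for 6 of the 9 genes. Those of C5ar1 and Itgam are not shown, although both genes also rose with recovery in both genotypes. The C5ar1 window held none of the motifs searched, which are named below. The Itgam window held GAGGAA or TTCCTC at 3 places.

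C1qa, the A chain gene, had 943, 1148 and 806 CPM in KO-recovery replicates 1 to 3 and 1014, 1199 and 959 CPM in those of WT-recovery. It had 495, 468 and 435 CPM in KO-OGD and 403, 393 and 405 CPM in WT-OGD. Recovery libraries were all above OGD libraries, and the genotypes overlapped after recovery but not after OGD. C1qa rose with recovery by a log2 fold change of 1.05 in KO (SE 0.12, edgeR quasi-likelihood adjusted p = 2.78e-06) and of 1.40 in WT (SE 0.12, adjusted p = 1.80e-07). C1qb, the B chain gene, had 1167, 1490.3 and 606 CPM in KO-recovery and 892, 889 and 915 CPM in WT-recovery. It had 393, 359 and 366 CPM in KO-OGD and 285, 269.7 and 279 CPM in WT-OGD. KO-recovery replicate 3 was the lowest recovery library and the other 2 KO-recovery libraries were the highest, while the 3 WT-recovery libraries lay close together. Its recovery change was 1.55 in KO (SE 0.23, adjusted p = 1.14e-04) and 1.69 in WT (SE 0.23, adjusted p = 6.12e-05). C1qc, the C chain gene, had 1047, 1246 and 545 CPM in KO-recovery and 883, 892 and 983 CPM in WT-recovery. It had 571, 520.3 and 495 CPM in KO-OGD and 389, 424 and 403 CPM in WT-OGD. KO-recovery replicate 3 again stood low and fell below KO-OGD replicate 1, so the KO groups overlapped. C1qc rose by 0.84 in KO (SE 0.22, adjusted p = 0.00491) and by 1.18 in WT (SE 0.22, adjusted p = 5.08e-04).

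No C1q chain was called between the genotypes. After recovery the log2 difference KO over WT was -0.13 for C1qa (95% interval -0.36 to 0.10), 0.27 for C1qb (-0.17 to 0.72) and 0.04 for C1qc (-0.38 to 0.46). These values rested on KO-recovery replicate 3. Without it C1qb was 0.56 higher in KO (adjusted p = 6.04e-04 by edgeR's test) and C1qc 0.32 higher (adjusted p = 0.0241). After OGD all 3 KO libraries lay above all 3 WT libraries for each chain, with differences of 0.22 for C1qa (SE 0.12, adjusted p = 0.374), 0.42 for C1qb (SE 0.23, adjusted p = 0.374) and 0.38 for C1qc (SE 0.21, adjusted p = 0.397). Over all genes tested, 30.4% had groups that did not overlap in that comparison. C1qb and C1qc passed the threshold in that comparison when only the OGD libraries were fitted (adjusted p = 0.00359 and 0.00962).

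C3, the component on which all pathways converge, lies on chromosome 17 at 57203970 to 57228136, minus strand. It had 528, 534 and 594 CPM in KO-recovery replicates 1 to 3 and 447, 377 and 357 CPM in those of WT-recovery. It had 92.0, 71.5 and 81.5 CPM in KO-OGD and 90.3, 88.9 and 94.8 CPM in WT-OGD. The KO and WT libraries were apart after recovery and overlapped after OGD, and every recovery library was far above every OGD library. C3 rose with recovery by 2.76 in KO (SE 0.11, edgeR quasi-likelihood adjusted p = 5.92e-11), a 6.76-fold change, and by 2.11 in WT (SE 0.11, adjusted p = 9.06e-10), a 4.31-fold change. The KO change exceeded the WT change by 0.65 (SE 0.15, adjusted p = 0.0199). After recovery C3 averaged 552 ± 36.4 CPM in KO and 394 ± 47.1 CPM in WT (SD, n = 3 each), a log2 difference of 0.49 (SE 0.10, adjusted p = 0.00377). Over all genes tested 33.5% did not overlap between the genotypes after recovery, and C3, Cfb and C3ar1 were those that did not among the 9. After OGD the difference was -0.16 (SE 0.10, adjusted p = 0.476).

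The 250 bases before the C3 start site, chr17:57228137-57228386 on the minus strand of GRCm38.p6 in RefSeq, are shown because C3 had the larger recovery change in KO. Capitals mark a C/EBP motif, TTGCNNAA, at position -45 from the start site, and 10.8% of all windows hold that motif.
C3: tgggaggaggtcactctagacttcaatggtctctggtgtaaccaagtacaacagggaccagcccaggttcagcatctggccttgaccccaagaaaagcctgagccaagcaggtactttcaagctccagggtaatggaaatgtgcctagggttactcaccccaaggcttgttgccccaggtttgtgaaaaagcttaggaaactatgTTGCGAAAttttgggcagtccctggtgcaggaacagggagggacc
None of the other motifs searched on both strands was in the 300-base window of C3. They were GAGGAA, the interferon response motif (in 3.44% of all windows), the NF-kappa-B motif (0.411%) and the AP-1 motif TGANTCA (7.81%).

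Cfb, the factor B gene (chromosome 17, 34856374 to 34862518, minus strand), was the lowest of the 9 in every group. It had 43.0, 39.8 and 72.1 CPM in KO-recovery and 26.6, 28.0 and 16.3 CPM in WT-recovery. It had 7.72, 5.72 and 5.88 CPM in KO-OGD and 8.90, 8.73 and 8.94 CPM in WT-OGD. The genotypes did not overlap at either time, with KO above WT after recovery and below it after OGD. Cfb rose with recovery by 3.00 in KO (SE 0.25, adjusted p = 8.77e-07 by edgeR's test), an 8.0-fold change, and by 1.41 in WT (SE 0.25, adjusted p = 4.21e-04), a 2.66-fold change. The KO change was larger by 1.59 (SE 0.34, adjusted p = 0.0229). After recovery the KO level was 1.14 above WT on the log2 scale (SE 0.24, adjusted p = 0.00568), and after OGD the difference was -0.45 (SE 0.25, adjusted p = 0.386). C2, which encodes the matching enzyme subunit of the classical pathway, lies on the same strand and ends 86 bases from Cfb. Cfb counts are uncertain, because 2246 of its 2825 exonic bases are shared with the readthrough gene Gm20547, whose counts were 84.9% to 94.7% of the sum of C2 and Cfb in each library. Gm20547 itself was higher in KO after recovery by 0.95 (adjusted p = 3.46e-04), with an interaction of 1.34 (adjusted p = 0.00169).

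The sum of 11 astrocyte markers moved with genotype beside these results, at 82.7 to 122 CPM in KO-recovery and 172 to 198 CPM in WT-recovery, with 8 of the 11 lower in KO and none at 0. The mean log2 level of these markers, rather than their sum, was then used as a covariate in edgeR. The calls between KO and WT after recovery were lost for C3 (0.55, adjusted p = 0.141), Cfb (0.70, adjusted p = 0.481) and Itgam (adjusted p = 0.516). The marker sums did not overlap between KO and WT after recovery or after OGD, so the covariate cannot separate astrocyte content from genotype. The call of the larger recovery change in KO was lost for C3 without WT-OGD replicate 3 (adjusted p = 0.0614), WT-recovery replicate 2 (0.0617) or 3 (0.0563), or both KO-recovery libraries with connective tissue transcripts (0.0548). For Cfb it was lost without KO-OGD replicate 2 (adjusted p = 0.0569) or 3 (0.0603), or WT-OGD replicate 1 (0.0534) or 3 (0.0581).

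C3ar1, the receptor for C3a, lies on chromosome 6 at 122847138 to 122856161, minus strand. It had 801, 873 and 644 CPM in KO-recovery replicates 1 to 3 and 436, 397 and 412 CPM in those of WT-recovery. It had 460.3, 622 and 511 CPM in KO-OGD and 417, 399 and 406 CPM in WT-OGD. Every KO library was above every WT library at both times, and the 2 WT groups overlapped. After recovery C3ar1 averaged 773 ± 117 CPM in KO and 415 ± 19.6 CPM in WT (SD, n = 3 each), a 1.86-fold difference (log2 0.90, SE 0.12, edgeR quasi-likelihood adjusted p = 1.32e-04). That call held in all 22 alternative settings, the astrocyte covariate included (adjusted p = 0.0419). C3ar1 rose with recovery in KO by 0.54 (SE 0.12, adjusted p = 0.00117). The change in WT was 0.03 (95% interval -0.21 to 0.26, adjusted p = 0.859), and the difference between the 2 changes was 0.51 (SE 0.17, adjusted p = 0.0925). After OGD the KO level was 0.38 above WT (SE 0.12, adjusted p = 0.0689), and it passed the threshold in 9 of the 22 alternatives.

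The 250 bases before the C3ar1 start site, chr6:122856158-122856407 on the minus strand of GRCm38.p6 in RefSeq, are shown because the difference of C3ar1 between the genotypes held in all alternatives. Capitals mark an AP-1 motif, TGANTCA, at position -22 from the start site, and the other motifs searched were not in the 300-base window.
C3ar1: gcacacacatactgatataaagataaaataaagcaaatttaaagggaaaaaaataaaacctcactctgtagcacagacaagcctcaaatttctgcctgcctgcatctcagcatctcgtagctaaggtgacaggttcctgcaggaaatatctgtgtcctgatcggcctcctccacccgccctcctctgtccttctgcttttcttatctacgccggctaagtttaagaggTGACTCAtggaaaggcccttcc

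C5ar1, the receptor for C5a, lies on chromosome 7 at 16246743 to 16259540, minus strand, and had the largest recovery change of the 9 in both genotypes. It had 191, 188 and 120.5 CPM in KO-recovery and 139.9, 143 and 145 CPM in WT-recovery. It had 11.3, 14.8 and 11.7 CPM in KO-OGD and 15.0, 14.8 and 13.4 CPM in WT-OGD. Every recovery library was far above every OGD library, and the genotypes overlapped at both times. C5ar1 rose by 3.73 in KO (SE 0.16, adjusted p = 3.57e-10 by edgeR's test), a 13.2-fold change, and by 3.31 in WT (SE 0.16, adjusted p = 1.14e-09), a 9.92-fold change. Between KO and WT the difference was 0.22 after recovery (95% interval -0.06 to 0.50, adjusted p = 0.300) and -0.19 after OGD (95% interval -0.50 to 0.11, adjusted p = 0.587). KO-recovery replicate 3 was the lowest recovery library. Without it C5ar1 was 0.41 higher in KO (adjusted p = 0.00507) and its recovery change was 0.60 larger in KO (adjusted p = 0.0110). C5ar2, which encodes another C5a receptor and lies 2589 bases away, rose by 1.84 in KO and 1.57 in WT (adjusted p = 8.20e-07 and 5.99e-06).

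Itgam, the alpha M chain of complement receptor 3, lies on chromosome 7 at 128062640 to 128118491, plus strand. It had 1933, 2133 and 2149 CPM in KO-recovery replicates 1 to 3 and 1982, 1045 and 1005 CPM in those of WT-recovery. It had 359.7, 432 and 356 CPM in KO-OGD and 279.5, 274 and 303 CPM in WT-OGD. WT-recovery replicate 1 stood with the KO libraries and far above the other WT-recovery libraries, so the genotypes overlapped after recovery. Itgam rose with recovery by 2.44 in KO (SE 0.22, edgeR quasi-likelihood adjusted p = 6.73e-07), a 5.41-fold change, and by 2.23 in WT (SE 0.21, adjusted p = 1.64e-06), a 4.71-fold change. After recovery it was 0.62 higher in KO (SE 0.20, adjusted p = 0.0446). Without WT-recovery replicate 1, the library with the conflicting treatment label, the difference was 1.01 (adjusted p = 3.06e-05). The call was lost in 13 of 22 alternatives, with adjusted p up to 0.516, the value with the astrocyte covariate. Each KO-recovery library, WT-recovery replicates 2 and 3 and 5 of the 6 OGD libraries ended the call when left out. After OGD the difference was 0.42 (SE 0.20, adjusted p = 0.305), with all KO libraries above all WT libraries. Itgam counts are uncertain too, since 3450 of its 5024 exonic bases are shared with Gm49368 on the same strand, which had 100.4% to 102% of the Itgam count in every library.

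Itgb2, the shared beta 2 chain, lies on chromosome 10 at 77530252 to 77565708, plus strand. It had 2085, 2284 and 2221 CPM in KO-recovery and 2235, 1299.6 and 1264 CPM in WT-recovery. It had 995, 1129.6 and 956 CPM in KO-OGD and 841, 821 and 878 CPM in WT-OGD. WT-recovery replicate 1 was again at the KO level and the other WT-recovery libraries were lower. Itgb2 rose by 1.10 in KO (SE 0.17, adjusted p = 7.41e-05 by edgeR's test) and by 0.92 in WT (SE 0.17, adjusted p = 3.59e-04). The difference between KO and WT was 0.46 after recovery (SE 0.17, adjusted p = 0.0673) and 0.28 after OGD (SE 0.17, adjusted p = 0.440). Without WT-recovery replicate 1 the difference after recovery was 0.77 (adjusted p = 1.09e-04).

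**Figure D2:**
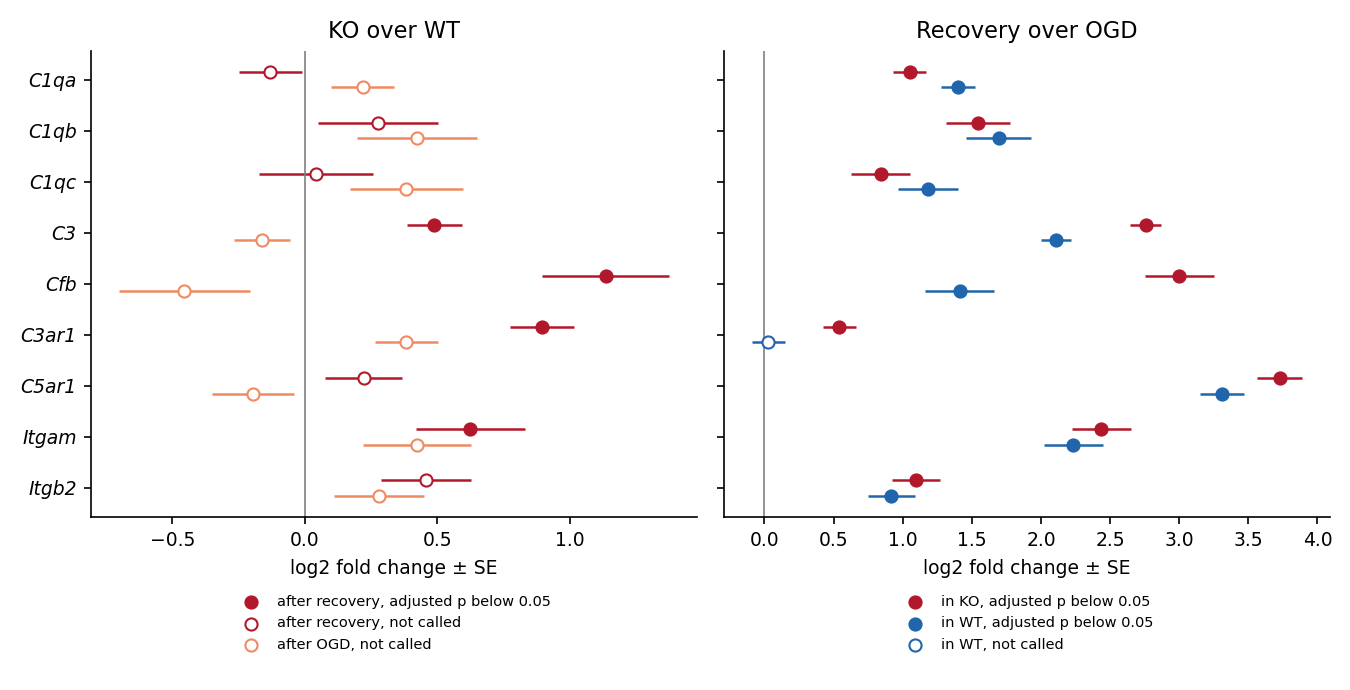
Log2 fold change ± SE of each of the 9 genes from edgeR, for KO over WT after recovery and after OGD (left) and for recovery over OGD in KO and in WT (right). Filled points had an adjusted p below 0.05 and open points did not: C3, Cfb, C3ar1 and Itgam are filled after recovery on the left, and C3ar1 in WT is the open point on the right.

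The beta 2 chain also pairs with the alpha chains encoded by Itgax (complement receptor 4), Itgad and Itgal (the integrin LFA-1), and these did not move alike. Itgax had 864, 968 and 1037 CPM in KO-recovery, 1191, 672 and 652 CPM in WT-recovery, 818 to 903 CPM in KO-OGD and 643 to 692 CPM in WT-OGD. WT-recovery replicate 1 was thus high for Itgax as well. Itgax was not called with recovery in KO (0.15, adjusted p = 0.486 by edgeR's test) or WT (0.34, adjusted p = 0.124). The change in WT was called without WT-recovery replicate 2 (0.46, adjusted p = 0.0480) or 3 (0.48, adjusted p = 0.0362) and without the low-count filter (0.28, adjusted p = 0.0330). Itgad fell with recovery, by 3.41 on the log2 scale in KO (adjusted p = 1.39e-09) and it fell by 3.72 in WT (adjusted p = 3.60e-09). It is encoded within the same 161 kb as Itgam. Itgal had 74.1, 70.5 and 154 CPM in KO-recovery and 209.5, 202 and 219.8 CPM in WT-recovery. It was lower in KO after recovery (-1.08, SE 0.24, adjusted p = 0.00937; 0.0639 with only the recovery libraries fitted) and rose with recovery in WT (0.87, SE 0.24, adjusted p = 0.00912). Its recovery change in KO was -0.13 (adjusted p = 0.649), and it was -0.61 without KO-recovery replicate 3 (adjusted p = 1.88e-05) and -0.66 without the 2 KO-recovery libraries that held connective tissue transcripts (adjusted p = 3.00e-04). After OGD Itgal was 101 to 119 CPM in KO and 109 to 120.1 CPM in WT.

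**Figure D3:**
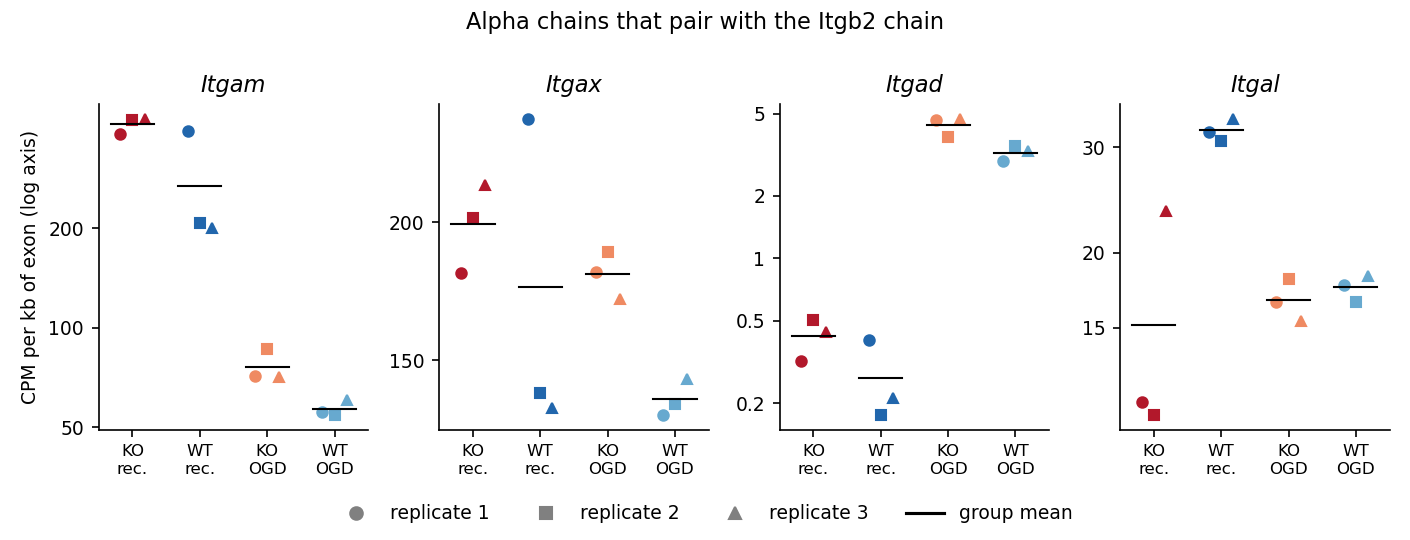
Level per kb of exon (CPM per kb, log axis) of the 4 alpha chains that pair with the beta 2 chain, with 1 point per library and a line at the group mean, for KO and WT after recovery (rec.) and after OGD. Itgam is high and Itgad low in all recovery libraries, Itgal is highest in WT-recovery, and WT-recovery replicate 1 (circle) is high for Itgam and Itgax.

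Levels of different genes were compared per kb of exon. C1q chains led in every group, with C1qb at 1000.03 ± 411 and C1qa at 929 ± 166 CPM per kb in KO-recovery, where their ranges overlapped, and C1qa at 1016 ± 121 and C1qb at 826 ± 12.99 in WT-recovery (SD, n = 3 each). Itgb2 followed at 719.7 ± 33.2 in KO-recovery and 524 ± 180 CPM per kb in WT-recovery. C1qc came next at 490.1 ± 187 and 476 ± 28.8 CPM per kb in the same groups, overlapping Itgam in KO-recovery and Itgb2 in WT-recovery. Below them the order Itgam, C3ar1, C3, C5ar1 and Cfb was the same in KO-recovery and WT-recovery, and neighbours in it had ranges that did not overlap. After OGD the order was C1qa (448 ± 28.8), C1qb, Itgb2, C1qc, C3ar1, Itgam, C3, C5ar1 and Cfb (2.28 ± 0.393 CPM per kb) in KO, with overlap between C1qb and Itgb2 alone. In WT-OGD C1qa (385 ± 5.97) was followed by Itgb2, C1qb, C1qc, C3ar1, Itgam, C3, C5ar1 and Cfb (3.14 ± 0.0386 CPM per kb), with no overlap between neighbours. C3ar1 thus stood above Itgam in both OGD groups and below it in both recovery groups.

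Partner genes kept different proportions, given as a description of ratios chosen after the values were seen. The CPM ratio of Itgam to Itgb2 was 0.927 to 0.968 in KO-recovery and 0.795 to 0.887 in WT-recovery. It was 0.361 to 0.383 in KO-OGD and 0.332 to 0.345 in WT-OGD. WT-recovery replicate 1, high for both chains, had 0.887, between the KO-recovery libraries and the other WT-recovery libraries (0.804 and 0.795). The ratio of C3ar1 to C5ar1 was 4.19 to 5.34 in KO-recovery and 2.78 to 3.12 in WT-recovery, and 40.7 to 43.8 in KO-OGD and 27.0 to 30.2 in WT-OGD. The balance of both anaphylatoxin receptor transcripts therefore lay higher in KO than in WT at each time and was lower after recovery. Of the C1q chains, C1qc over C1qa was 0.677 to 1.11 in KO-recovery, 0.744 to 1.03 in WT-recovery, 1.11 to 1.15 in KO-OGD and 0.964 to 1.08 in WT-OGD. C1qb over C1qa was 0.753 to 1.30, 0.742 to 0.955, 0.766 to 0.842 and 0.686 to 0.707 in the same 4 groups, so the spread within recovery groups was wider than that within OGD groups for both.

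**Figure D4:**
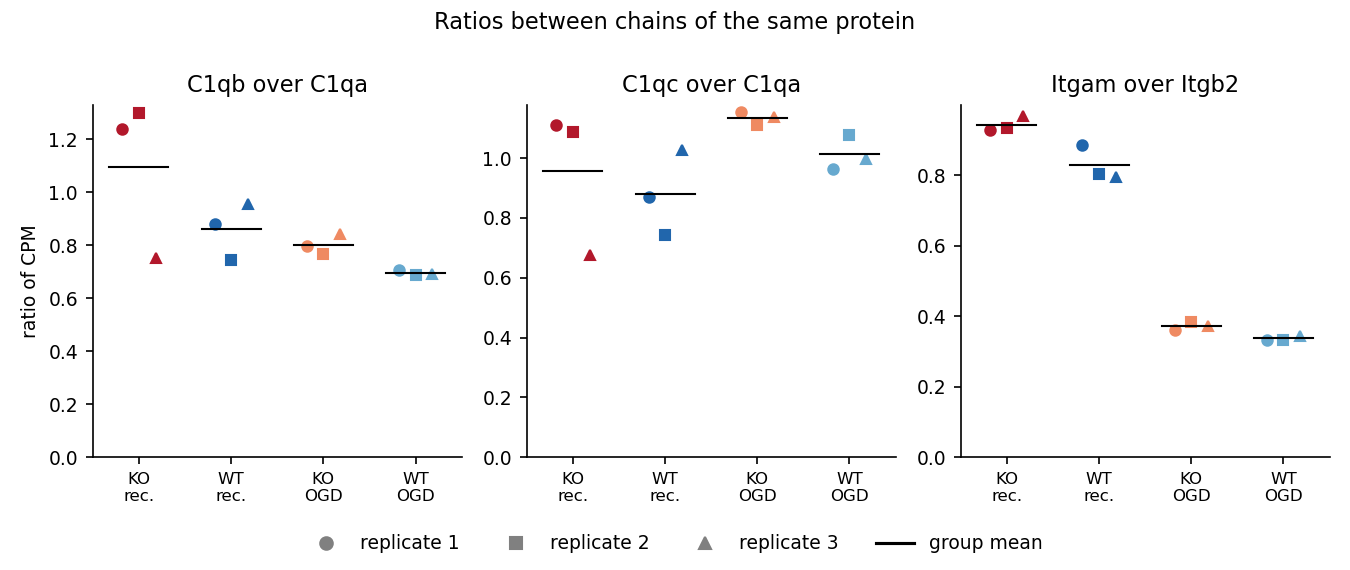
Ratio of the CPM of chains of the same protein in each library (linear axis), with 1 point per library and a line at the group mean. Panels are C1qb over C1qa, C1qc over C1qa and Itgam over Itgb2, for KO and WT after recovery (rec.) and after OGD. Itgam over Itgb2 is 0.795 to 0.968 in recovery libraries and 0.332 to 0.383 in OGD libraries.

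Of 55 other complement genes listed, 33 passed the filter on low counts. With recovery 19 rose and 2 fell in KO (median 0.95), and 15 rose and 8 fell in WT (median 0.54). Over all genes tested, 29.3% rose and 29.6% fell in KO (median 0.00), and 26.9% rose and 29.9% fell in WT (median -0.03), so the share that fell in WT was near that of all genes. The largest rises in KO were those of Cfp (3.15), Susd4 (2.95) and Cd93 (2.63), with adjusted p of at most 2.99e-04 by edgeR's quasi-likelihood test. Cfp encodes properdin, which stabilises the alternative pathway enzyme, and it averaged 371 ± 122 CPM in KO-recovery and 41.7 ± 5.96 CPM in KO-OGD (SD, n = 3 each). In WT the largest rises were those of Csmd3, Susd4 (3.40) and Cfp (2.58, with 273 ± 72.5 CPM in WT-recovery and 45.5 ± 2.64 CPM in WT-OGD). Csmd3 had 40 counts in WT-recovery and 3 in WT-OGD, a ratio of 41.1 per total count (exact 95% binomial counting interval 13.1 to 207). Among falls, Itgad was named above. C1qbp, whose protein binds C1q and is mostly mitochondrial, fell by 0.60 in KO and was also called lower in WT. The engulfment receptor gene Megf10 fell by 2.05 in WT, and Cd55, which encodes a surface inhibitor of the C3-cleaving enzymes, fell by 1.71.

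By role, and against 29.3% of all genes in KO and 26.9% in WT that rose, 4 of the 5 genes of classical and shared activation that were tested rose with recovery in KO (C1ra, C1s1, C2 and C4b). In WT 1 rose (C1ra) and 1 fell (C2). Of 12 regulators tested, 9 rose in KO and 8 rose in WT, where 2 fell. Of 7 genes of the terminal pathway 1 passed the filter (C8g), as did 4 of 9 of the lectin pathway. The recovery change was larger in KO for 4 of the 33, namely C1s1 (2.49, adjusted p = 0.0300), C2 (0.96, adjusted p = 0.0239), Cd93 (0.87, adjusted p = 0.00231) and C1ra (0.79, adjusted p = 0.0281), and for none was it smaller, against 2.89% and 2.36% of all genes. C1ra and C1s1 encode the proteases that sit on C1q, and C2 the classical counterpart of factor B. The call for Cd93 held in all 21 alternatives that gave a value, and those of C1ra, C1s1 and C2 were lost in 9, 8 and 8.

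**Figure D5:**
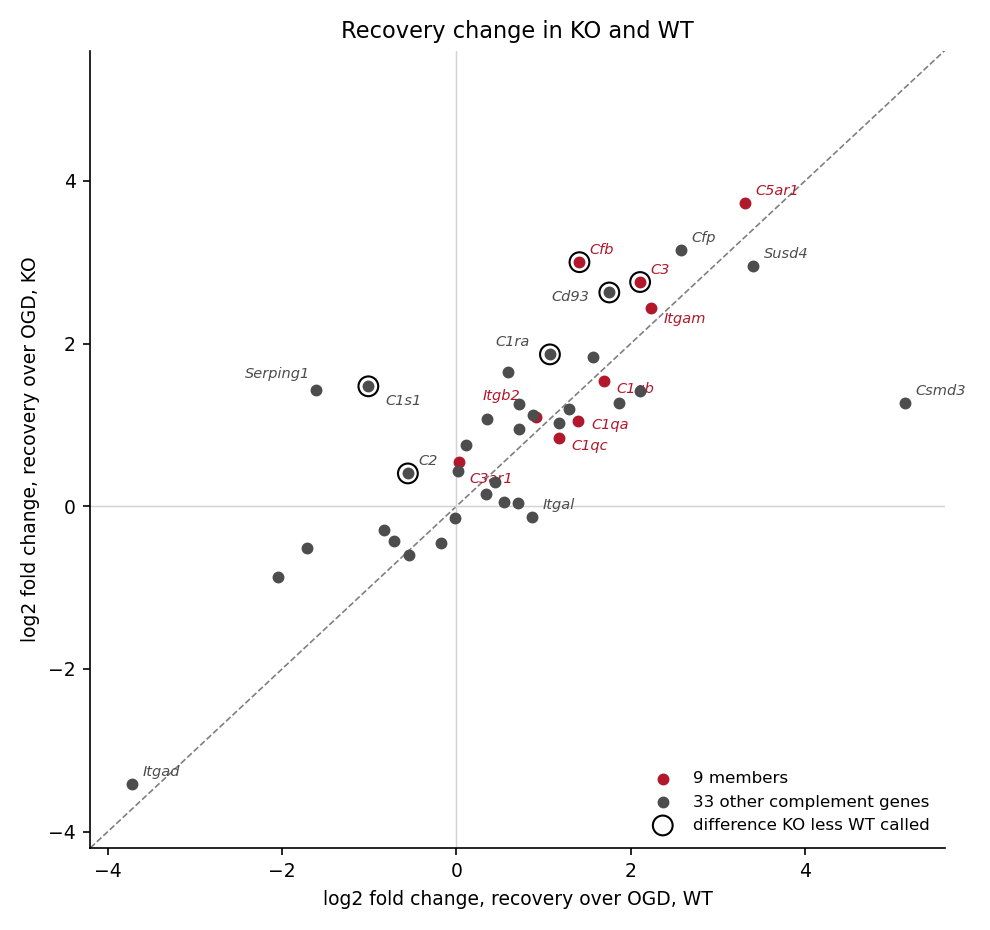
Log2 fold change with recovery in KO (vertical) against that in WT (horizontal), from edgeR, for the 9 complement genes (red) and 33 other complement genes (grey), with a dashed line of equal change and a ring where the difference between the genotypes had an adjusted p below 0.05. The 6 ringed genes, C3, Cfb, C1ra, C1s1, C2 and Cd93, all lie above the line.

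Between KO and WT after recovery 6 of the 33 were higher and 5 lower, with a median of 0.19, against 10.1% of all genes higher and 12% lower, with a median of 0.01. The share that was lower was near that of all genes. Cd93, whose protein was once described as a C1q receptor, averaged 198 ± 25.9 CPM in KO and 122 ± 12.1 CPM in WT (SD, n = 3 each; log2 difference 0.70, adjusted p = 1.65e-04 by edgeR's test). Calr (0.70), which encodes the chaperone calreticulin, and C1ra (0.70) followed, and Masp2 and C2 were also higher. The lower ones included Csmd3 (-3.10), Susd4 (-2.25) and Csmd1 (-2.17), which encode membrane proteins with complement control domains. Those 3 calls were lost with the astrocyte covariate, as was that of C1ra. That of Csmd1 was also lost without the 2 KO-recovery libraries that held connective tissue transcripts (adjusted p = 0.0525). After OGD 1 was higher in KO and 5 were lower, among them C1s1 (-2.01), Csmd2 (-1.82) and Megf10 (-1.78), with a median of -0.10, against 0.966% of all genes higher and 6.52% lower, with a median of -0.01. The astrocyte markers summed to 56.3 to 81.3 CPM in KO-OGD and 137 to 199 CPM in WT-OGD, with 11 of 11 lower in KO. None of the 33 was called there with the astrocyte covariate. As these sums did not overlap between the genotypes, that covariate cannot separate astrocyte content from genotype. Calls were also lost for Megf10 without WT-OGD replicate 2 (adjusted p = 0.0623) or 3 (0.0611), and for Csmd2 in libraries thinned to 1 depth (0.230).

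Likeness of pattern was taken as the root mean square difference of centred log2 CPM over the 12 libraries, against 15264 other genes with a mean of at least 1 CPM. Closest to C3 were Ccl9 (0.15), Cd80 (0.16) and Serpinb12 (0.18). C3ar1 was closest to Tal1 (0.09), C1qa to Ang (0.12), C1qb to Ly86 (0.20), C1qc to Rras (0.14), C5ar1 to Snhg11 (0.20), Cfb to Fcrls (0.30) and Itgb2 to Nrp2 (0.12). Itgam was closest to the overlapping Gm49368 (0.01). Among the members themselves the ranks were lower. C3 ranked 8th from Cfb (0.36) and 31st from Itgam (0.31), C1qa ranked 46th from C1qc (0.24), and Itgb2 ranked 591st from its partner Itgam (0.67). Genes flanking the members on the chromosome did not all share their changes. Tnfsf14, next to C3, rose with recovery by 3.28 in KO and 3.46 in WT, while Gpr108 on its other side changed by 0.11 and -0.05 and Nelfe, 2 bases from Cfb, by -0.21 and -0.10, none of the last 4 values being called. Gpr108 was 0.31 higher in KO than in WT after recovery (adjusted p = 0.00537 by edgeR's test), as C3 was higher.

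Markers of microglia and of other cells were measured beside these results. Microglia markers summed to 2033 to 2296 CPM in KO-recovery, 1818 to 2119 in WT-recovery, 2204 to 2375 in KO-OGD and 2061 to 2068 in WT-OGD. Of 11 tested, 5 rose and 4 fell with recovery in KO, and 6 rose and 3 fell in WT. Against WT, 2 of these markers were higher and 2 lower in KO after recovery, and 4 were lower and 0 higher after OGD. Border macrophage markers summed to 2039 to 2515 CPM in KO-recovery, 1591 to 2260 in WT-recovery, 958 to 1106 in KO-OGD and 947 to 979 in WT-OGD, with 7 of 9 higher after recovery in each genotype, 1 lower in WT and none at 0. After recovery 3 of these 9 were higher in KO than in WT and none was lower. Monocyte markers summed to 106 to 129 CPM in KO-recovery, 94.8 to 114 in WT-recovery, 16.3 to 17.4 in KO-OGD and 23.8 to 28.4 in WT-OGD, with all 6 that were tested higher after recovery in both genotypes and 3 of the 6 higher in KO than in WT after recovery. Plac8 was at 0 in 3 of the 4 groups. Neutrophil markers, whose cells carry Itgam, Itgb2 and C5ar1, summed to 44.7 to 66.9 CPM in KO-recovery, 29.7 to 40.3 in WT-recovery, 58.7 to 66.8 in KO-OGD and 57.4 to 69.5 in WT-OGD, and Ly6g was at 0 in all 4 groups. Endothelial markers summed to 119.8 to 130.4 CPM in KO-recovery, 64.4 to 81.7 in WT-recovery, 10.2 to 11.7 in KO-OGD and 9.35 to 10.9 in WT-OGD, with 2 of the 4 that were tested higher in KO after recovery and Cldn5 at 0 in 3 groups. Oligodendrocyte lineage markers summed to 239 to 292 CPM in KO-recovery, 285 to 342 in WT-recovery, 139 to 141 in KO-OGD and 148 to 155 in WT-OGD. Of these 8 markers 7 rose with recovery in KO and 8 in WT, and 3 were lower in KO than in WT after recovery and 2 after OGD. Neuron markers summed to 6.61 to 13.8 CPM in KO-recovery, 34.6 to 41.8 in WT-recovery, 3.88 to 5.06 in KO-OGD and 10.2 to 13.01 in WT-OGD. Of the 6 neuron markers tested 5 rose with recovery in each genotype, and 3 were lower in KO than in WT at each time. Over all genes tested, 29.3% rose and 29.6% fell with recovery in KO, and 26.9% rose and 29.9% fell in WT. Against WT, 10.1% were higher and 12% lower in KO after recovery, and 0.966% and 6.52% after OGD. The part of any of these cell types in the changes of the 9 genes was not tested.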

How the data were processed

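RNA of 12 microglia libraries was sequenced, and the values the authors deposited are whole-number counts of reads for each gene without normalization. Alignment and counting tools are HISAT2 and featureCounts with build GRCm38, per the submitters' processing notes. Versions, annotation and counting options (strand, shared reads) are not given in the sources used here. Of 55421 identifiers, 55240 matched GENCODE M21 without version numbers, and 54673 with them. The members and gene lists were chosen with earlier results of these data known. Named genes are the 9 members, up to 3 other complement genes per comparison and direction with the largest called change, the alpha chains of beta 2 integrins, and the 3 genes of most similar pattern per member, of which the closest are printed.

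Counts were filtered with filterByExpr, scaled by TMM and fitted with glmQLFit (robust, 1 mean per group, all 12 libraries) in edgeR 4.0.16 (R 4.3.3). glmQLFTest gave 5 contrasts, adjusted by the Benjamini-Hochberg method over 18842 genes. CPM uses TMM-adjusted library sizes, and SE is the fold change over the root of F. The 95% intervals of fold changes use that SE with a normal quantile, so they are narrower than the test implies. The procedure was tested on simulated data. Depth ranged from 9885259 to 45347118 counts. The counting interval covers counting error only. Pairs of replicates differed by more than sampling noise (chi-square per degree of freedom 6.66 to 60.2). Alternatives were 22 other settings, DESeq2 1.42.0 among them. Values of a few single genes are not reported here.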

Additional observations from a re-analysis of the deposited data

Results flagged for a closer look

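For 6 complement genes the change with recovery differed between KO and WT by a test of that difference itself, the interaction term of edgeR's quasi-likelihood fit. C3 differed by 0.65 on the log2 scale, with a recovery change of 2.76 in KO and 2.11 in WT, and Cfb by 1.59, with 3.00 in KO and 1.41 in WT (adjusted p = 0.0199 and 0.0229). Cd93 differed by 0.87, with 2.63 in KO and 1.75 in WT (adjusted p = 0.00231). C1ra differed by 0.79, with 1.87 in KO and 1.07 in WT (adjusted p = 0.0281). C1s1 differed by 2.49, with 1.47 in KO and -1.01 in WT, and C2 by 0.96, with 0.40 in KO and -0.56 in WT (adjusted p = 0.0300 and 0.0239). C2 and Cfb each overlap the readthrough gene Gm20547. How reads in the overlap were counted is not given, so the values of both genes are uncertain. C1s1 was low throughout, at 43 counts over the 3 KO-OGD libraries. WT-recovery also differed from the other 3 groups in Xist, so sex cannot be told apart from these differences.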

How the results depend on the processing

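Among the 9 genes, the counts called with recovery (9 in KO and 8 in WT) were the same in every alternative, each library left out included. Between KO and WT after OGD the count of 0 became 1 with RLE size factors, DESeq2 or mitochondrial genes left out before scaling. It was 5 without the low-count filter, 6 with only the OGD libraries, 3 without the 2 KO-recovery libraries that held connective tissue transcripts and 3 without the 2 libraries richest in mitochondrial counts, and 0 to 3 with 1 library left out. The share of all genes called in each of these settings is not given here, so a general rise in calls cannot be told apart. After recovery the count of 4 became 1 with the astrocyte covariate, and ranged from 3 to 6 with 1 library left out. The count of 2 for the interaction became 1 with the replicate block and 4 without the 2 libraries richest in mitochondrial counts, and ranged from 0 to 4 with 1 library left out. Replicate numbers did not pair the samples (correlations of deviations -0.27 to 0.18 over 18 pairs), and the block ended the interaction call of Cfb (adjusted p = 0.0552 in edgeR).

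Among the 33 other complement genes, the count of 6 called between KO and WT after OGD became 10 with DESeq2, 13 without the filter, 12 with only the OGD libraries, 12 without the KO-recovery libraries with connective tissue transcripts, 12 without the 2 libraries richest in mitochondrial counts and 0 with the astrocyte covariate, and ranged from 2 to 10 with 1 library left out. After recovery the count of 11 became 3 with the astrocyte covariate and ranged from 7 to 15 with 1 library left out. The count of 4 for the interaction became 9 without the filter and 2 in thinned libraries, and ranged from 1 to 6 with 1 library left out.

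No value of changed sign was called, although values at the other end of some ranges below were (C1qb, C1qc, Itgax and Itgal). For KO over WT after recovery they were C1qa (0.015 with the astrocyte covariate, 0.12 without the KO-recovery libraries with connective tissue transcripts), C1qb (-0.019 without the libraries richest in mitochondrial counts) and C1qc (-0.23 in that setting, -0.0013 with the block). With 1 library left out C1qb ranged from -0.026 to 0.56 and C1qc from -0.21 to 0.32. The recovery change of C3ar1 in WT was -0.022 without the filter and -0.016 to 0.055 with 1 library left out, that of Itgax in WT -0.011 to 0.48, and that of Itgal in KO -0.61 to 0.041, and 0.043 without the libraries richest in mitochondrial counts. The interaction was 0.30 for C1qb and 0.052 for C1qc without the KO-recovery libraries with connective tissue transcripts, and -0.45 to 0.14 for C1qb with 1 library left out. The causes were not tested.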
